A study of Drosophila melanogaster and Drosophila simulans and Drosophila yakuba with 30 samples.

Results

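The genes D (Dichaete, CG5893), Sox21a (CG7345) and Sox21b (CG32139) form the group B Sox cluster on the left arm of chromosome 3, and the binding of Dichaete and SoxN across this cluster is described here. The cluster was taken as a window of 240 kb in D. melanogaster coordinates, chr3L:14030001-14270000 of the UCSC build dm3, and every binding interval that overlapped it was counted. Over the 6 lists in these coordinates, 243 of 98045 intervals were found there. The D. melanogaster lists held 50 of 20848 Dichaete intervals and 55 of 22952 SoxN intervals at the cluster. In the lists translated from the other species, 39 of 16119 D. simulans Dichaete intervals, 46 of 15142 D. simulans SoxN intervals, 45 of 20964 D. yakuba Dichaete intervals and 8 of 2020 D. pseudoobscura Dichaete intervals lay in the window.

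Group B Sox proteins are transcription factors that bind DNA through an HMG box, and in both flies and vertebrates they act early in the nervous system. Dichaete, the product of D, functions in embryonic segmentation, in neural stem cells and the midline of the central nervous system, and in the brain and hindgut. SoxN, whose gene lies on another chromosome arm, is expressed with Dichaete in much of the early neuroectoderm, and the proteins can stand in for each other in part. Sox21a is known for its role in the differentiation of adult intestinal stem cells, and Sox21b encodes a further group B protein. The regulatory sequence of D is known to reach well beyond its transcribed part. The window was chosen around genes that encode members of the same group as the proteins assayed. It may hold other genes too, and whether binding there acts on D, Sox21a or Sox21b was not tested.

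In the current annotation of the D. melanogaster genome, all 3 genes were matched by symbol. Sox21a is followed directly by Sox21b, and a single long non-coding RNA gene, lncRNA:CR45887, is listed between Sox21b and D. No other protein-coding gene is listed between Sox21a and D. Fbp1 is the neighbour on the far side of Sox21a, and nan, which encodes an ion channel subunit, is the neighbour on the far side of D. That annotation belongs to a later build than the lists, so only the names and their order were used. The intervals described below are given by position and are not assigned to D, Sox21a or Sox21b, nor to exons, introns or promoters.

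In DamID, a protein is joined to the bacterial methylase Dam, and GATC sites near the places where the protein binds become methylated. The fusions were compared with Dam alone in whole embryos of 0 to 16 h, with 3 libraries for each of 10 combinations of species and transgene. All lines carried a pBac3xP3-EGFP insertion holding Dichaete-Dam, SoxN-Dam or Dam, and the host strains were w[1118] for D. melanogaster, w[501] for D. simulans, Cam-115 for D. yakuba and the reference strain for D. pseudoobscura pseudoobscura. SoxN-Dam was assayed only in D. melanogaster and D. simulans. The fusions held the D. melanogaster proteins in every species and were placed behind UAS sites and an Hsp70 promoter, so the pattern of expression is not that of D or SoxN themselves. Flies were kept at 25 °C, or at 22.5 °C for D. pseudoobscura, and embryos of all species were collected at 25 °C.

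Several properties of the lists bear on all values below. Each list was called by the authors on the 3 fusion and 3 Dam-only libraries together at an adjusted p-value of 0.05 unless stated, and holds the position of each interval and the number of GATC fragments merged into it. No value per library, read depth or spread between replicates can be given, and no differences were tested. The Dichaete and SoxN lists of a species share their Dam-only libraries. Intervals of all lists are built from whole GATC fragments, so their borders fall only at GATC sites. Borders that are equal to the base are therefore no measure of how precisely binding is placed. A fragment can be missing from a translated list because its sequence did not translate to D. melanogaster or because it missed the threshold, and these causes cannot be separated from the lists. The paper describes the D. pseudoobscura profiles as noisier than in the other species, with replicates that reproduced less well. Lines with Dichaete-Dam also carry a further copy of the D coding sequence in the transgene, and reads from that copy cannot be told apart in the lists from reads of D itself, whereas SoxN-Dam lines carry no such copy.

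**Figure D1:**
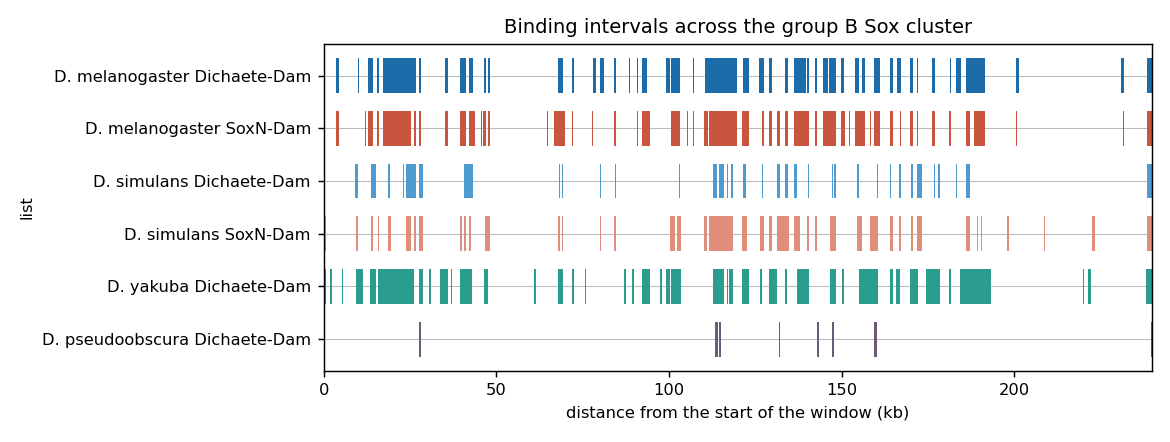
Binding intervals of the 6 lists (rows) along the window, plotted as distance from its start in kb; each block is an interval drawn to scale. The long blocks of both D. melanogaster lists at the left and in the middle, the 8 D. pseudoobscura intervals and the thinly covered stretch before the right-hand edge can be seen.

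Intervals covered more of the cluster than of a typical stretch of 3L in every list but the D. simulans Dichaete list, where the cluster was close to the median. Dichaete intervals covered 70322 bp of the window in D. melanogaster, or 29.3%, and SoxN intervals covered 68333 bp, or 28.5%. In D. simulans the covered part was 11.6% for Dichaete and 19.1% for SoxN. Dichaete intervals covered 32.7% in D. yakuba and 1.93% in D. pseudoobscura. The D. yakuba list thus covered the most of the cluster and the D. pseudoobscura list the least, which is also the order of these lists over 3L as a whole.

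The covered part was set against that of 101 non-overlapping windows of 240 kb tiled along 3L, the cluster included. The median window was covered to 17.4% by D. melanogaster Dichaete intervals and to 16.8% by SoxN intervals, so that the cluster stood at 1.69 times the median in both lists. It ranked 9 of 101 for Dichaete and 12 of 101 for SoxN. In D. simulans, the cluster ranked 50 of 101 for Dichaete, at 1.02 times the median of 11.3%, and 18 of 101 for SoxN, at 1.61 times the median of 11.8%. It ranked 25 of 101 in D. yakuba against a median of 24.5%, and 15 of 101 in D. pseudoobscura against a median of 0.995%. No list had its highest coverage here: the fullest window reached 48.5% for D. melanogaster Dichaete and 5.64% for D. pseudoobscura. Of the 100 other windows, 7 were covered at least as much as the cluster in all 5 lists without D. pseudoobscura, and 4 in all 6 lists.

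**Figure D2:**
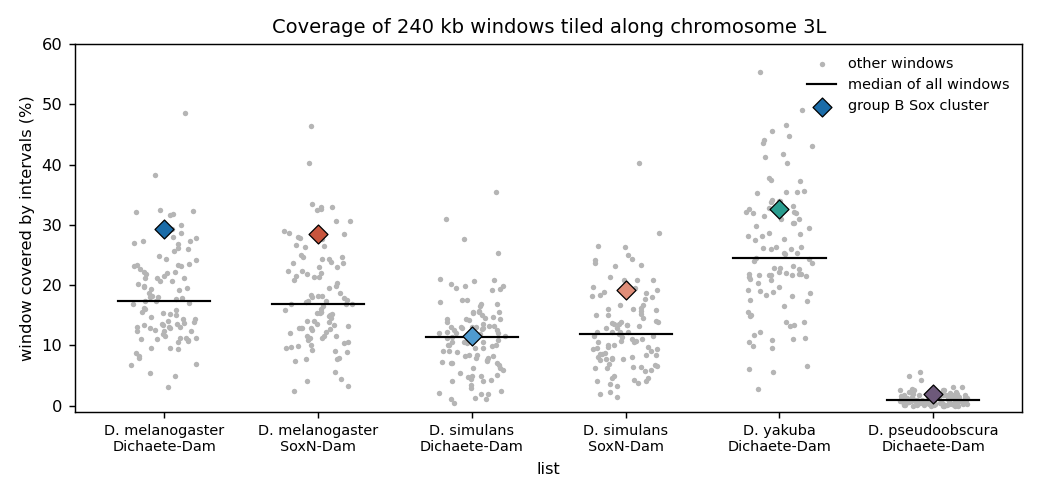
Percent of each 240 kb window of 3L covered by intervals (y axis) in the 6 lists (x axis); grey points are other windows, spread sideways at random, black lines are the medians of all 101 windows and diamonds mark the group B Sox cluster. The diamond lies above the median line in each list, by the least in D. simulans Dichaete (11.6% against 11.3%).

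By the number of intervals the cluster ranked lower than by covered length in the D. melanogaster and D. yakuba lists, and higher in the D. simulans and D. pseudoobscura lists. With 50 D. melanogaster Dichaete intervals against a median of 42.0 per window, the cluster ranked 28 of 101, and with 55 SoxN intervals against 47.0 it ranked 27. In D. yakuba, 45 intervals against a median of 43.0 gave rank 39. D. simulans Dichaete, with 39 intervals against a median of 33.0, ranked 34, and D. simulans SoxN, with 46 against 30.0, ranked 15. The 8 D. pseudoobscura intervals, against a median of 4, gave rank 13. The median length of the D. melanogaster Dichaete intervals was 935 bp, compared with 671 bp over the whole list, and 35 of the 50 were longer than the list's median. For D. melanogaster SoxN the medians were 698 bp and 593 bp, and for D. simulans Dichaete 540 bp and 568 bp. Intervals made of a single GATC fragment were 9 of 50 (18.0%) in the D. melanogaster Dichaete list, where the whole list had 27.2%. In the D. simulans Dichaete list they were 17 of 39 (43.6%) against 34.4%.

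The most fragment-rich interval of the cluster lay near the middle of the window. In D. melanogaster, Dichaete was called over chr3L:14140565-14149641, an interval of 9077 bp made of 61 merged GATC fragments. By the number of fragments it ranked 4 of the 20848 Dichaete intervals of the genome, and by length it ranked 40. SoxN was called there in an interval of 8089 bp with 49 fragments (chr3L:14141553-14149641) that ranked 10 of 22952 by fragments, and in a smaller interval before it (chr3L:14140073-14141243). The right-hand end fell at the same GATC site in both lists. In D. simulans, SoxN formed an interval of 6797 bp with 42 fragments at this place, chr3L:14141675-14148471, which ranked 16 of 15142 by fragments and was the longest SoxN interval of the cluster in that species.

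Dichaete in the other species was called over parts of the same stretch. In D. simulans, 4 separate Dichaete intervals of 1068 bp, 1474 bp, 500 bp and 576 bp together covered 39.9% of the D. melanogaster interval, while D. simulans SoxN covered 80.6% of it. In D. yakuba 3 Dichaete intervals covered 51.9%, the longest of them chr3L:14142729-14145910 with 3182 bp and 24 fragments. In D. pseudoobscura 2 Dichaete intervals covered 18.0%, chr3L:14143350-14144323 with 8 fragments and chr3L:14144554-14145212 with 6. The first of these ranked 25 of 2020 by fragments in its list. Several borders fell at the same GATC site: intervals opened at position 14142729 and closed at 14145910 in the D. simulans and D. yakuba Dichaete lists. The stretch closed at 14148471 in both of these and in the D. simulans SoxN list. All 6 lists were called here, in D. pseudoobscura over the smallest part.

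**Figure D3:**
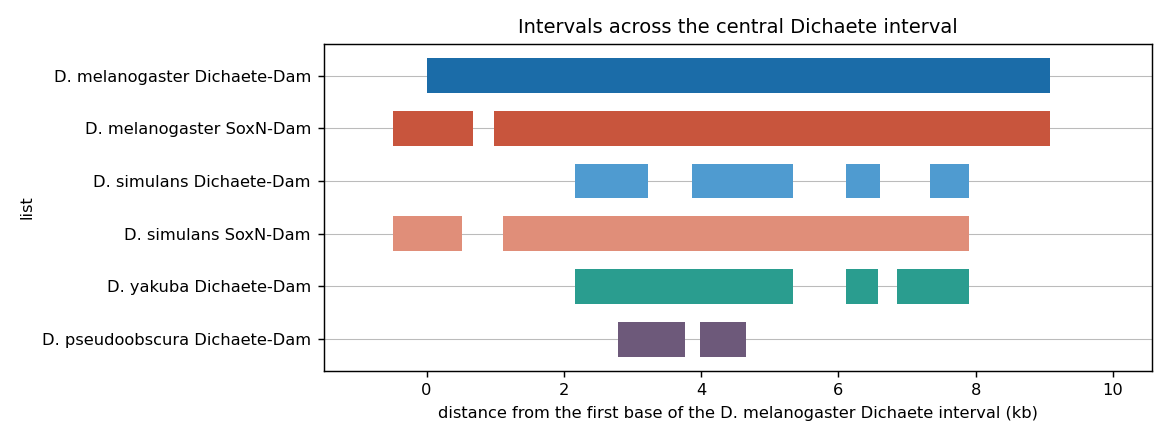
Intervals of the 6 lists (rows) across the fragment-rich stretch at the middle of the cluster, as distance in kb from the first base of the D. melanogaster Dichaete interval. The D. simulans SoxN blocks cover 80.6% of that interval, and the D. simulans, D. yakuba and D. pseudoobscura Dichaete blocks cover 39.9%, 51.9% and 18.0%.

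GATC fragments were short at this place, so that a given length held more of them. The D. melanogaster Dichaete interval had 6.72 fragments per kb, against a median of 3.50 among the 636 Dichaete intervals of at least 4 kb, and ranked 11 among them. The SoxN interval had 6.06 fragments per kb, rank 22 of 471, and the D. simulans SoxN interval 6.18, rank 9 of 359. The part of site density in the calling of this stretch was not tested.

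The other broad intervals of the cluster had fewer sites for their length. The longest D. melanogaster Dichaete interval, chr3L:14047320-14056648, measured 9329 bp with 26 fragments, at 2.79 fragments per kb. SoxN had an interval of 7937 bp with 24 fragments there (chr3L:14047320-14055256) and another of 460 bp. The longest interval of the cluster in any list was the D. yakuba Dichaete interval at the same place, chr3L:14045813-14056188, with 10376 bp and 29 fragments, which covered 95.1% of the D. melanogaster Dichaete interval. D. simulans covered 40.9% of that interval with Dichaete and 28.8% with SoxN. The longest D. simulans Dichaete interval of the cluster, chr3L:14053785-14056648 with 2864 bp, lay in this stretch. No D. pseudoobscura interval overlapped this stretch. The nearest was an interval of 489 bp, chr3L:14057703-14058191, just beyond its right-hand end.

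A broad stretch toward the far end of the cluster was covered more by Dichaete than by SoxN in D. melanogaster, at 61.1% against 33.2% of the 10 kb from 14210001 to 14220000. Dichaete was called there over chr3L:14216017-14221450, with 5434 bp and 13 fragments, and in D. yakuba over chr3L:14214375-14223169, with 8795 bp and 19 fragments. SoxN was called there in D. melanogaster as separate intervals of 1078 bp and 3049 bp. Both D. simulans lists held the same interval of 1078 bp, chr3L:14216017-14217094, identical to the D. melanogaster SoxN interval. Just before this stretch, the D. melanogaster Dichaete interval chr3L:14213108-14214706, with 1599 bp, had no SoxN interval in either species.

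The other long intervals of the cluster differed between the lists in how they were divided. The SoxN interval chr3L:14166211-14170614 had 4404 bp and 16 fragments, and Dichaete in D. melanogaster had an interval of 3422 bp (chr3L:14166211-14169632) and another of 654 bp there. D. yakuba Dichaete covered its latter part with an interval of 3577 bp. The SoxN interval chr3L:14174498-14178396 had 3899 bp, also with 16 fragments, beside Dichaete intervals of 1488 bp and 1916 bp. At chr3L:14096710-14099994 SoxN had an interval of 3285 bp and Dichaete a shorter interval of 1429 bp. At the window's right-hand edge, Dichaete was called over chr3L:14268333-14271715 in D. melanogaster, with 3383 bp of which a part lies beyond the window. In D. simulans the longest SoxN intervals after the central one were chr3L:14161162-14164626, with 3465 bp, and chr3L:14268530-14271823, with 3294 bp. For D. simulans Dichaete the ranks 2 and 3 by length were chr3L:14070663-14073131, with 2469 bp, and chr3L:14201840-14203334, with 1495 bp, and for D. yakuba Dichaete chr3L:14184934-14190641, with 5708 bp, was rank 3 by length at the cluster.

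Coverage along the cluster was uneven in each list. Of 24 bins of 10 kb, the bin holding the central interval was the fullest for D. melanogaster Dichaete (90.8% covered) and SoxN (92.6%), for D. simulans SoxN (78.1%) and for D. pseudoobscura (16.3%). The bin chr3L:14050001-14060000 was the fullest for Dichaete in D. simulans (43.7%) and D. yakuba (74.2%). Bins covered by at least 50% numbered 3 for D. melanogaster Dichaete, 4 for SoxN and 5 for D. yakuba, 2 for D. simulans SoxN, and 0 for D. simulans and D. pseudoobscura Dichaete.

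Long stretches without any interval lay between. No list held an interval from 14078266 to 14090889, a stretch of 12624 bp, nor over 11095 bp from 14238788 to 14249882. The latter fell within the longest gap of the D. melanogaster Dichaete list, 29488 bp from 14231466 to 14260953. SoxN left nearly the same gap in D. melanogaster, 30605 bp, and D. simulans Dichaete a longer one of 48084 bp from 14220446 to 14268529. The longest gap was 26713 bp in D. yakuba and 19709 bp in D. simulans SoxN, the latter from 14078110 to 14097818. In D. pseudoobscura the 8 intervals left gaps of 85158 bp and 79224 bp. The few intervals called between 14231466 and 14260953 came from D. simulans SoxN (2 intervals of 257 bp and 760 bp) and D. yakuba Dichaete (312 bp and 920 bp), and none of them was overlapped in another list.

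The design allows the question of how far Dichaete intervals at the cluster were positionally conserved between species. A single shared base pair sufficed for an overlap (minimum 1 bp). Each share carries its 95% Wilson interval, which covers counting error only and treats neighbouring intervals as independent. For D. simulans, 27 of the 50 D. melanogaster Dichaete intervals had a counterpart (54.0%, interval 40.4 to 67.0%), where 47.8% of the whole list were. In D. yakuba 36 were overlapped (72.0%, interval 58.3 to 82.5%), against 64.2% of the whole list. In D. pseudoobscura 5 were overlapped (10.0%, interval 4.35 to 21.4%), against 5.32% of the whole list. In all 3 species the share at the cluster was above that of the whole list, but the whole list's share lay within the counting interval each time.

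These shares depended on the overlap asked for, and for D. simulans the order turned. With at least 50% of the D. melanogaster interval overlapped, 9 of 50 (18.0%) were met in D. simulans, below the 32.0% of the whole list. With intervals of at least 500 bp in both lists, 14 of 42 (33.3%) were met, below 45.8%. In D. yakuba 33 of 50 (66.0%) were met at 50%, against 54.8%, and in D. pseudoobscura 1 of 50 (2.00%), against 1.16%.

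Seen from the other species, more of the cluster's intervals were met in D. melanogaster. Of the 39 D. simulans Dichaete intervals, 35 overlapped a D. melanogaster Dichaete interval (89.7%, interval 76.4 to 95.9%), compared with 68.7% of all D. simulans Dichaete intervals. Of the 4 that did not, 2 ended where a D. melanogaster interval began or began where it ended. In D. yakuba 31 of 45 overlapped (68.9%, interval 54.3 to 80.5%; whole list 57.0%), and in D. pseudoobscura 6 of 8 (75.0%, interval 40.9 to 92.9%; whole list 63.8%). For D. simulans the whole list's share lay below the counting interval, and for D. yakuba and D. pseudoobscura within it.

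**Figure D4:**
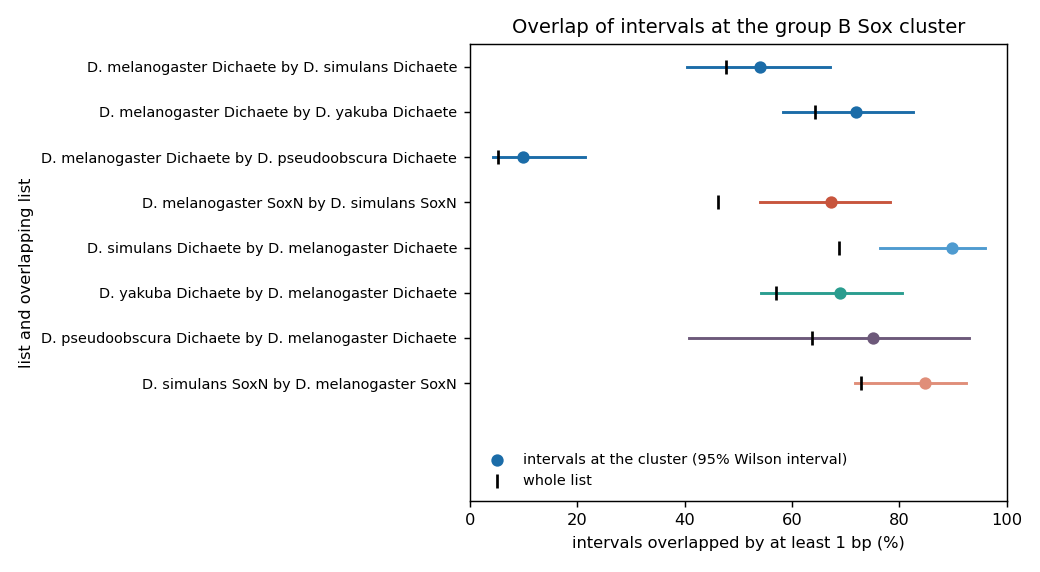
Percent of the cluster's intervals overlapped by at least 1 bp in another list (points, with 95% Wilson intervals as lines) for 8 pairs of lists, with the share over the whole list as a black tick. The ticks for D. melanogaster SoxN by D. simulans SoxN (46.2%) and for D. simulans Dichaete by D. melanogaster Dichaete (68.7%) lie below the lines.

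SoxN intervals could be compared in D. melanogaster and D. simulans. Of the 55 D. melanogaster SoxN intervals, 37 were overlapped by D. simulans SoxN (67.3%, interval 54.1 to 78.2%), against 46.2% of the whole list. With at least 50% of the interval overlapped, 27 of 55 (49.1%) were met, and the whole-list share under that rule was not computed. In the other direction 39 of 46 D. simulans SoxN intervals were overlapped (84.8%, interval 71.8 to 92.4%), against 72.8% of the whole list. At 1 bp, the whole list's share lay below the counting interval for the D. melanogaster intervals and within it for the D. simulans intervals. Intervals with the same start and end in both species numbered 5 of 55, against 6.68% of the whole list. For Dichaete, 1 of the 50 D. melanogaster intervals had the same start and end in D. simulans, chr3L:14163748-14164532, against 6.04% of the whole list. In D. yakuba and D. pseudoobscura 0 of the 50 did, against 5.01% and 0.187%.

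When the Dichaete lists of D. melanogaster, D. simulans and D. yakuba were merged, 57 regions resulted at the cluster. Of these, 21 were held by all 3 species (36.8%, interval 25.5 to 49.8%), compared with 25.6% of 29282 regions over the genome. A further 10 were held by 2 species (17.5%, against 20.6% over the genome) and 26 by a single species (45.6%, against 53.8%). The single-species regions were 12 of D. melanogaster (21.1% of the 57 regions), 13 of D. yakuba (22.8%) and 1 of D. simulans (1.75%). Over the genome these shares were 20.0%, 25.0% and 8.81%. At the level of bases, 17939 bp of the window, or 7.47%, were covered by Dichaete in all 3 species, against 5.07% of the median window, which ranked the cluster 33 of 101.

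The same Dam-only libraries stand behind the Dichaete and SoxN lists of D. melanogaster, and the same holds in D. simulans. No count or share of overlap between the factors of a species alone is therefore given, and their intervals are set side by side by position. The regions and stretches counted below over several lists combine both factors. Places with an interval of a single factor in D. melanogaster can be named. The longest Dichaete intervals without SoxN were chr3L:14213108-14214706 with 1599 bp and chr3L:14110079-14111153 with 1075 bp. In D. simulans, both Dichaete and SoxN were called over 390 bp of the latter. The longest of the SoxN intervals without Dichaete measured 377 bp (chr3L:14135175-14135551).

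In D. simulans the cluster was covered more by SoxN than by Dichaete. SoxN had 46 intervals and Dichaete 39, and SoxN covered 7.53 percentage points more of the window. Over the windows of 3L the median of this difference was 1.09 points, with a range from -10.8 to 13.4, and the cluster ranked 11 of 101. In D. melanogaster SoxN minus Dichaete was -0.829 points at the cluster, with a median of -0.188. The longest regions with SoxN alone measured 1401 bp (chr3L:14130392-14131792) and 1295 bp (chr3L:14076815-14078109), and both were overlapped by Dichaete and SoxN in D. melanogaster.

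The 5 lists without D. pseudoobscura shared 15608 bp of the window, 6.50% against 3.44% of the median window, in 27 stretches, although the Dichaete and SoxN lists of a species are not independent of each other. The longest of these measured 1474 bp, chr3L:14144437-14145910, inside the central interval. Next in length were stretches of 1472 bp (chr3L:14053785-14055256), 1202 bp (chr3L:14268530-14269731), 1078 bp (chr3L:14216017-14217094) and 1068 bp (chr3L:14142729-14143796).

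Merging all 6 lists gave 64 regions at the cluster, of which 6 were held by every list (9.38%, interval 4.37 to 19.0%). Over the genome 950 of 31862 merged regions were (2.98%). Here too, the Dichaete and SoxN lists of a species are not independent of each other. With intervals of at least 500 bp only, 2 of 44 regions of the cluster were held by every list (4.55%), against 1.90% over the genome. The 6 regions were chr3L:14057536-14058770, chr3L:14140073-14149641 with the central interval, chr3L:14158831-14164626, chr3L:14174498-14178396, chr3L:14183918-14191024 and chr3L:14268214-14271823. A further 12 regions were held by the 5 lists other than D. pseudoobscura, and 26 were held by a single list, 13 of them by D. yakuba Dichaete. Of the other single-list regions, 6 were D. melanogaster SoxN, 4 D. simulans SoxN, 2 D. melanogaster Dichaete and 1 D. pseudoobscura Dichaete. The regions held by 5 lists made up 18.8% of the 64, against 16.8% over the genome. Single-list regions made up 40.6%, close to the genome, where 12736 of 31862 were held by a single list. Regions held by 3 and by 4 lists were 10.9% each, against 11.3% and 10.0%. Those held by 2 lists were 9.38%, below the 19.0% over the genome.

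**Figure D5:**
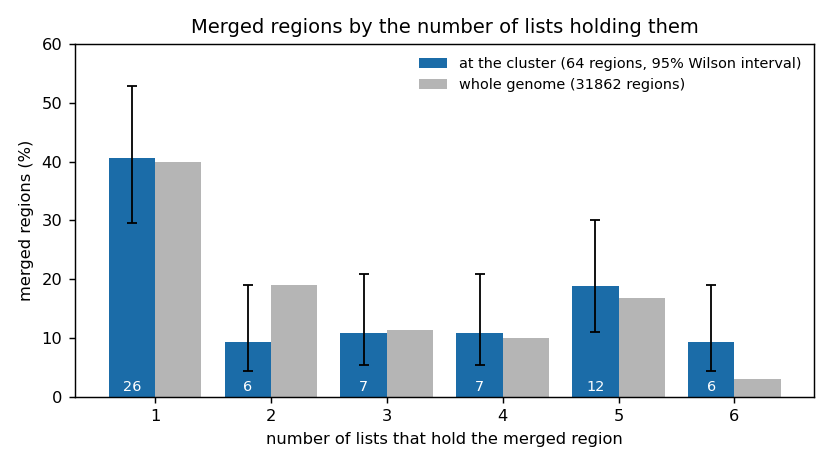
Percent of merged regions (y axis) by the number of lists that hold them (x axis), at the cluster (blue, with 95% Wilson intervals and the number of regions in white) and over the whole genome (grey). Regions held by all 6 lists are 9.38% at the cluster and 2.98% over the genome.

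The 8 D. pseudoobscura intervals, from the most distant species, were mostly met by the other lists. How many of all 2020 D. pseudoobscura intervals were met in every other list was not computed. By D. melanogaster Dichaete alone, 63.8% of them were overlapped. Those at chr3L:14057703-14058191 (489 bp), chr3L:14143350-14144323 (974 bp), chr3L:14144554-14145212 (659 bp), chr3L:14177281-14177664 (384 bp) and chr3L:14269447-14270310 (864 bp) were overlapped in all 5 other lists. The interval chr3L:14189510-14190222 (713 bp) was overlapped in 4 and missed D. simulans Dichaete. The interval chr3L:14161901-14162096 (196 bp) was overlapped in 3, namely by both D. simulans lists and D. melanogaster SoxN, and by no Dichaete interval of D. melanogaster or D. yakuba. The interval chr3L:14172932-14173590 (659 bp), a single fragment, was overlapped in none, although it directly abutted a D. melanogaster Dichaete interval. Thus 2 of the 6 merged regions held by every list were joined through intervals that do not all meet at the same bases. The bases covered in all 6 lists came to 1962 bp in 5 stretches, with the longest, 659 bp, equal to the D. pseudoobscura interval chr3L:14144554-14145212. This was 0.818% of the window against 0.104% of the median window, rank 8 of 101.

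In the stricter D. melanogaster lists, at an adjusted p-value of 0.01, less of the cluster was covered. Of the 50 Dichaete intervals, 41 held an interval at 0.01 (82.0%; whole list 76.8%), and of the 55 SoxN intervals 40 did (72.7%; whole list 69.4%). The covered part was 22.1% for Dichaete and 21.8% for SoxN. Windows of 3L covered at least as much as the cluster were then 13.9% for Dichaete, against 8.91% at 0.05, and 10.9% for SoxN, against 11.9%. Of the 9 Dichaete intervals that were lost 5 were single fragments and the longest had 1252 bp (chr3L:14195910-14197161). Of the 15 SoxN intervals lost 14 were single fragments, and the longest had 940 bp (chr3L:14161157-14162096), the D. melanogaster interval that met the D. pseudoobscura interval at 14161901. Of the central intervals, 8290 of 9077 bp were kept for Dichaete and 7965 of 8089 bp for SoxN. Of the broad intervals at the left, 7968 of 9329 bp were kept for Dichaete and 4798 of 7937 bp for SoxN. At the far end, Dichaete kept 3163 of 5434 bp, and the SoxN interval chr3L:14218402-14221450 kept 885 of 3049 bp.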

How the data were processed

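Embryos of 4 Drosophila species were assayed by DamID-seq. According to the methods, the authors trimmed reads with cutadapt and mapped them with Bowtie2. Reads extended to 200 bp were then counted per GATC fragment. The authors tested each fusion against Dam-only with DESeq2 and merged fragments past the threshold within 100 bp. For lists in dm3 coordinates, the authors passed reads of the other species through LiftOver (minMatch 0.7, or 0.5 for D. pseudoobscura). Other than positions, the deposited lists carry only a fragment count per interval, whose meaning was inferred from the values, as they have no header. Of 12 lists, 6 were used, with 2 more at the threshold of 0.01; the 4 in other genomes' coordinates were not used here.

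Intervals were compared with Python 3.11 scripts using NumPy and SciPy, checked on simulated lists. Covered parts, shared bases and gaps were clipped to the window. Counts, lengths, overlaps and merged regions used whole intervals. The last interval end on 3L in any list served as the end of 3L. Named intervals are the 5 longest of each D. melanogaster list, the 3 longest of each translated list, every D. pseudoobscura interval, regions in all 6 lists and the longest gaps; others were named after their values were seen. The window, members and rules were chosen with earlier results of these data known. Alternatives were stricter overlaps, the 0.01 lists, length and fragment minimums, joined gaps and other windows. Motifs, protein sequences and gene positions in dm3 were not analysed here.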

Additional observations from a re-analysis of the deposited data

How the results depend on the processing

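Across 13 alternative settings, 107 of 124 recomputed values stayed within 1.5 times the main value (counts and lengths) or within its 95% Wilson interval (shares). The following moved further. With intervals of at least 500 bp only, the cluster held 34 D. melanogaster SoxN, 21 D. simulans Dichaete, 30 D. simulans SoxN and 5 D. pseudoobscura intervals. Without single-fragment intervals it held 22, 30 and 5 in the last 3 lists. Ranked by the number of intervals, 29.7%, 28.7%, 34.7% and 42.6% of windows were at or above the cluster for D. melanogaster Dichaete, D. melanogaster SoxN, D. simulans Dichaete and D. yakuba Dichaete, against 8.91%, 11.9%, 49.5% and 24.8% by covered length. With at least 50% of the interval overlapped, the shares of D. melanogaster Dichaete intervals met in D. simulans and D. pseudoobscura were 18.0% and 2.00%. The shares of D. melanogaster SoxN met by D. simulans SoxN and of D. yakuba Dichaete met by D. melanogaster Dichaete were then 49.1% and 53.3%. For these pairs no whole-list share was computed under this rule. With at least 500 bp in both lists, D. melanogaster Dichaete was met by D. simulans in 33.3%. With the D. melanogaster list at 0.01, 53.3% of D. yakuba intervals were met, also without a whole-list share to set beside it. Within the Wilson interval, but by over 1.5 times, moved the share of regions held by all 6 lists (4.55% at 500 bp or more, against 9.38%) and the windows at or above the cluster for D. melanogaster Dichaete (13.9% at 0.01, against 8.91%). The cause was not tested beyond the fewer or shorter intervals that these settings leave. No paired analysis was possible because the lists pool the 3 libraries of a group and no test was run; for the same reason no replicate could be left out. Sequence motifs and protein identity were planned and not run. No count or share of overlap between the factors of a species alone is given, as they share Dam-only libraries. The regions and stretches counted over several lists combine both factors. The depth behind an interval is unknown.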

Other observations

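The windows of 240 kb on either side were covered less than the cluster in most lists. The window before it, chr3L:13790001-14030000, was covered to 18.0% by D. melanogaster Dichaete and 16.1% by SoxN, with ranks of 48 and 54 of 101, and held 0 D. pseudoobscura intervals. The window after it, chr3L:14270001-14510000, was covered to 22.1% and 22.3%, rank 30 in both lists, and held 6 D. pseudoobscura intervals. In D. simulans Dichaete, the window after the cluster was covered slightly more than the cluster itself, 12.5% against 11.6%, and in D. simulans SoxN less, 16.7% against 19.1%. D. yakuba Dichaete covered 31.0% of the window before and 27.4% of the window after, against 32.7% of the cluster.

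Very short intervals occurred in the cluster. A Dichaete interval of 5 bp at chr3L:14161157-14161161 was listed in D. melanogaster, and a SoxN interval of 5 bp at chr3L:14122485-14122489 in D. simulans, each a single fragment between neighbouring GATC sites.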
